A study of Sus scrofa with 8 samples.

Results

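Solute carriers are the membrane proteins, numbered by family with the symbol SLC or SLCO, that move sugars, amino acids, ions, metals, vitamins, nucleotides and drugs across the membranes of a cell. Their messages were followed here in the liver of 8 pigs. Of these, 4 were Korean native pigs, abbreviated KNP and aged 7 months, and 4 were Yorkshire pigs, abbreviated YS and aged 6 months. KNP is an indigenous Korean breed and YS a commercial breed. The labels name no transgene and no treatment, and all pigs were kept under the same conditions. Tissue was taken at the end of the largest lobe, with 1 Affymetrix porcine array for each animal. Age is tied to breed, so a difference between the breeds is one of breed and age together. The members are the probe sets with a single gene symbol in the array annotation that begins with SLC or SLCO and a digit, with SLC10A1, SLC27A5 and SLC40A1 left out. The rule gave 183 probe sets of 122 genes in 37 families, among 23999 probe sets that are not controls. By their symbols, 3 of the genes are no transporters: SLC9A3R1 and SLC9A3R2 encode scaffold proteins that hold transporters and channels at the membrane, and SLC2A4RG encodes a transcription factor.

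A liver cell faces the blood on one side and a bile canaliculus on the other, and carriers on both faces decide what enters and leaves it. Glucose passes in either direction through GLUT2 (SLC2A2), drugs and hormone conjugates enter through organic anion carriers of the SLCO family, and carriers of the SLC25 family link the cytosol with the mitochondrial matrix, where urea, ketone bodies and haem are partly made. Other families serve organelles: SLC35 proteins carry nucleotide sugars into the Golgi and endoplasmic reticulum, and SLC30 and SLC39 proteins move zinc in opposite directions across membranes. No sequence of a probe, promoter or protein was used here, so the members are identified by symbol and probe set.

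The deposited intensities are on a linear scale, and the array medians ran from 152 to 179.4. A difference stands for the mean in KNP less that in YS after log2(intensity + 16), given with its standard error (SE). It comes from limma, fitted to 14399 probe sets, with Benjamini-Hochberg adjusted p-values and a threshold of 0.05. The lower 40% of probe sets by mean were left out of this test. Means are given ± SD over 4 animals per breed, and values of single animals are given in the order of replicates 1 to 4. The arrays carry no count of reads, and their number limits the precision. All 8 hepatocyte markers examined were bright, with summed intensities of 287576 to 330557 on KNP arrays and 457956 to 494824 on YS arrays. Of these 8, 6 were called lower in KNP, with differences of −0.86 to −0.36 over the 8, and none was called after quantile normalization, which gave −0.33 to 0.050. Of 5 cholangiocyte markers measured, KRT19, CFTR and SOX9 lay below the filter on low values, and EPCAM (0.65, adjusted p = 0.246) and SPP1 (0.38) passed it without being called. After quantile normalization, which gives all arrays the same distribution, the differences of the 90 tested solute carrier genes moved by at most 0.15, and 3 of them, all near 0, changed sign.

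With the filter, limma called 0 solute carrier probe sets higher and 0 lower in KNP, out of 117 tested, where 1.03% of all probe sets tested were called (0.424% higher and 0.611% lower). Over all probe sets tested, 61 were called higher and 88 lower, and after median centring 57 higher and 38 lower, again with no solute carrier. The smallest adjusted p among them was 0.0785, of SLC38A9. At an unadjusted p under 0.05 there were 13 probe sets (11.1%), 7 higher and 6 lower, against 15.1% of all probe sets tested (7.07% higher and 8.06% lower). The 2 breeds did not overlap in 6 probe sets (5.13%), against 9.68% of all (4.01% with KNP above and 5.67% with KNP below). The other 66 probe sets lay below the filter, and for 32 genes no probe set passed it. With the brightest probe set standing for its gene, 48 of 90 genes had a higher and 42 a lower mean in KNP. Their median difference was 0.073, beside −0.015 over all 5423 genes tested. It was 0.008, 0.013 and 0.025 without KNP replicate 1, 3 and 4 and 0.15 after median centring. Of the genes, 73 lay within 0.5 of 0. A difference of at least 1 in size was seen in 2 tested probe sets, of SLC17A1 and SLC30A3 (1.71%), against 2.58% of all. In 5 of the tested probe sets, of SLC30A3, SLC26A6, SLC25A14, SLC27A6 and SLCO1A2, the mean of 1 breed alone lay below the filter, so these passed it only through the breed where they were higher. The median SE of the difference over the 90 genes was 0.25, so a difference of that size is no larger than its own error. A missed threshold does not show that the breeds are alike.

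**Figure D1:**
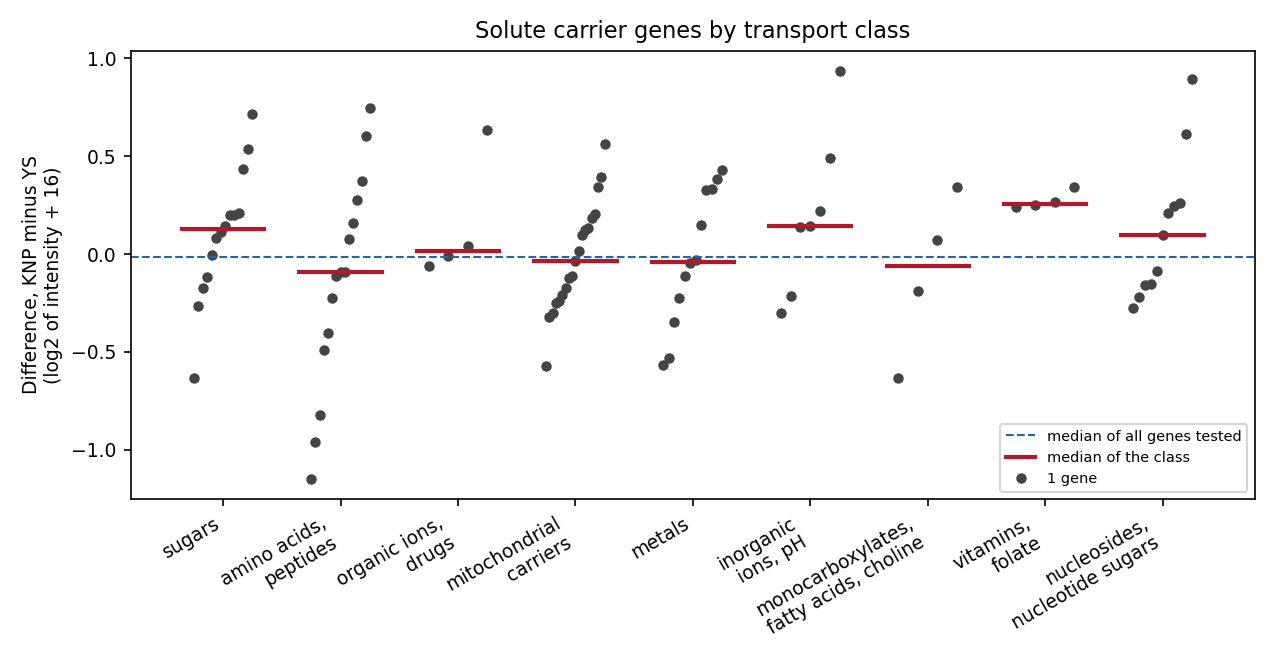
Difference between the breeds (KNP minus YS, log2 of intensity + 16) of the 90 tested solute carrier genes, by transport class on the horizontal axis. Each point is 1 gene by its brightest probe set, red bars are class medians, and the dashed line is the median of all genes tested (−0.015). Points of each class but vitamins and folate lie on both sides of 0.

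SLC4A4, the sodium bicarbonate cotransporter that brings base into or out of epithelial cells, and SLC35A4, a member of the nucleotide sugar carrier family, were called higher in KNP by limma when no filter on low values was applied, where 0.1% of 23999 probe sets were called higher and 0.0458% lower (0.146% in all). No solute carrier was called lower. Both probe sets lay below the filter, and all their YS values lay far below the array medians. Probe set Ssc.17240.1.S1_at of SLC4A4 read 215, 135, 185 and 159 in KNP and 15.5, 29.9, 37.8 and 30.6 in YS. Every KNP animal lay above every YS animal, with a gap between the lowest KNP and the highest YS value that was wider than the range of either breed. The log2 difference was 2.10 (SE 0.31, adjusted p = 0.0338, n = 4 per breed). A pseudocount of 1 gave 2.61 and one of 64 gave 1.35, with the call kept in both. The second SLC4A4 probe set read 46.2, 4.33, 35.3 and 6.36 in KNP and 7.76, 56.4, 43.3 and 33.1 in YS, all below the array medians and overlapping between the breeds. The summed level of the 5 cholangiocyte markers ran from 672 to 2272 in KNP and from 667 to 1117 in YS, and their part in the SLC4A4 value was not tested.

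Probe set Ssc.4150.1.S1_at of SLC35A4 read 149, 138, 138 and 119 in KNP and 27.0, 36.8, 20.7 and 28.4 in YS, again without overlap. The log2 difference was 1.79 (SE 0.29, adjusted p = 0.0466), and 2.25 and 1.12 with pseudocounts of 1, where the call was lost (adjusted p = 0.0664), and 64. The brighter SLC35A4 probe set did not show this pattern: it read 201, 156, 244 and 159.6 in KNP and 104, 208, 192 and 131 in YS (log2 difference 0.26, SE 0.26, adjusted p = 0.680). Leaving out 1 animal ended both calls, except that of SLC4A4 without KNP replicate 2 (adjusted p = 0.047). The SLC4A4 difference stayed between 1.94 and 2.20 and that of SLC35A4 between 1.70 and 1.88, with adjusted p up to 0.0933 and 0.118. Among the 66 members below the filter, 3 had no overlap, all higher in KNP, against 1.18% higher and 6.25% in either direction among all 9600 probe sets below it. The third was the dimmer probe set of SLC25A3, the mitochondrial phosphate carrier, which read 61.6, 121, 26.6 and 45.5 in KNP and 22.6, 14.6, 26.2 and 13.1 in YS, while the brighter one overlapped (0.19).

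**Figure D2:**
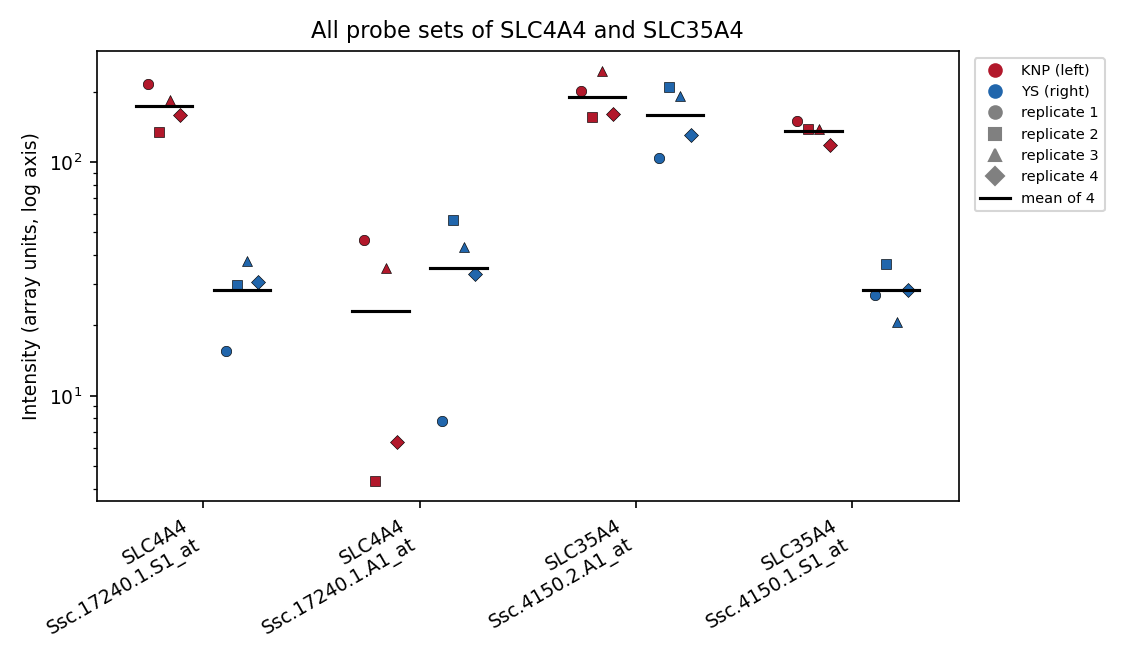
Intensity (log axis) of both probe sets of SLC4A4 and both of SLC35A4 in each animal, KNP in red on the left and YS in blue on the right, with symbols for the replicates and bars for the mean of 4. One probe set of each gene separates the breeds, and the other does not.

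Among the tested probe sets, the 6 without overlap belonged to SLC29A1 and SLC25A38, higher in KNP, and to SLC38A9, SLC30A3, SLC31A1 and SLC44A2, lower in KNP. None passed the threshold with limma. SLC38A9, a lysosomal carrier that reports arginine to the growth regulator mTORC1, read 1066, 858, 807 and 595 in KNP and 1636, 1245, 1369.8 and 1596 in YS (log2 difference −0.82, SE 0.19, adjusted p = 0.0785). The lowest YS animal lay above the highest KNP animal, and the second probe set showed −0.37 with overlap. SLC29A1, the nucleoside carrier ENT1, read 369, 277, 291 and 293 in KNP and 92.0, 165, 181 and 216 in YS (log2 difference 0.90, SE 0.25, adjusted p = 0.123). SLC31A1, the high-affinity copper importer, read 1605, 2821, 2717 and 2771 in KNP and 3484, 3949.8, 3267 and 3667 in YS (log2 difference −0.57, SE 0.19, adjusted p = 0.196). KNP replicate 1 was the lowest of all, and without it the difference was −0.37. The second SLC31A1 probe set lay below the filter and went the other way, at 59.9 ± 21.1 against 25.9 ± 22.7 with overlap. Its difference was 0.96 when no filter was applied (adjusted p = 0.349).

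SLC25A38, the mitochondrial carrier of glycine for haem synthesis, read 778, 506, 726 and 798 in KNP and 408, 449.7, 503 and 494 in YS (log2 difference 0.56, SE 0.18, adjusted p = 0.174). Of the red cell markers measured, the haem synthesis enzyme ALAS2 and the globin chaperone AHSP had differences of −0.56 and −0.91 and HBB 0.08, and the summed level of these 3 ran from 1597 to 3600 in KNP and from 2080 to 5463 in YS. Their part in the SLC25A38 value was not tested, and in bulk tissue fewer cells of a type and less RNA per cell cannot be told apart. SLC25A37, the mitochondrial iron carrier mitoferrin, showed −0.11, with 0.28 for its second probe set, and SLC25A39, a mitochondrial carrier of glutathione, −0.036. SLC30A3, a zinc carrier known from synaptic vesicles, was split between its probe sets. The dimmer one, which passed the filter only through its YS values, read 54.0, 34.8, 114 and 92.7 in KNP and 139, 155, 316 and 249.5 in YS (log2 difference −1.38, SE 0.37, adjusted p = 0.108), and the brighter one showed 0.15 with overlap. SLC44A2, a choline transporter-like protein, read 323, 376, 362 and 305 in KNP and 379, 407, 394 and 382 in YS, so close that the difference of −0.19 was hardly larger than its SE of 0.15.

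**Figure D3:**
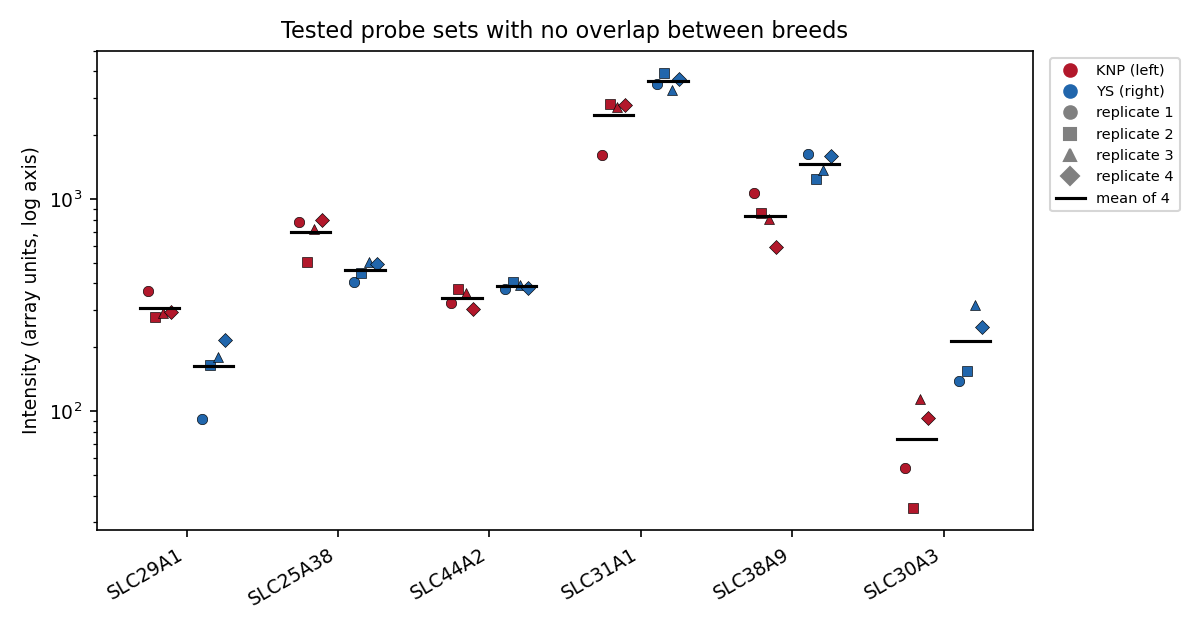
Intensity (log axis) of the 6 tested solute carrier probe sets without overlap between the breeds, in each animal, with KNP in red on the left, YS in blue on the right and bars for the mean of 4. From SLC44A2 to SLC30A3, YS lies above KNP; in SLC29A1 and SLC25A38, KNP lies above YS.

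The sugar carrier families counted 23 probe sets of 18 genes, with 14 genes above the filter, of which 9 had a higher and 5 a lower mean in KNP (median difference 0.13). SLC2A2, GLUT2, through which the liver takes up and releases glucose, read 2582, 1931, 1210.3 and 1378 in KNP and 1605, 1339, 1626 and 1902 in YS, with all YS values inside the KNP range (log2 difference 0.080, SE 0.23, adjusted p = 0.903). SLC37A4, which brings glucose 6-phosphate into the endoplasmic reticulum for the last step of glucose release, lay at 3976 ± 795 against 3417 ± 599 (0.21, and 0.30 for its second probe set). The high-affinity glucose carriers SLC2A1 and SLC2A3 showed −0.27 and 0.14, and the sodium-coupled SLC5A1 0.20. SLC50A1, a sugar carrier of the SWEET family, lay at 359.6 ± 60.8 against 261 ± 32.5 (log2 difference 0.43, SE 0.18, adjusted p = 0.296). SLC45A2, a melanosome protein required for pigment in skin and hair, read 220.3, 432, 254 and 312 in KNP and 437, 504, 591 and 366 in YS (log2 difference −0.64, SE 0.23, adjusted p = 0.230). One KNP animal, replicate 2, lay within the YS range.

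Among amino acid and peptide families there were 34 probe sets of 22 genes, with 15 genes above the filter, of which 6 had a higher and 9 a lower mean in KNP (median difference −0.092). SLC17A1, which belongs to a family with glutamate carriers but itself carries phosphate, urate and other organic anions, read 1175, 241, 429 and 1512 in KNP and 1499, 1311, 1484 and 1649 in YS (log2 difference −1.15, SE 0.47, adjusted p = 0.278). The 4 YS values were close together while KNP replicates 2 and 3 were low, and without KNP replicate 2 the difference was −0.68. SLC15A2, the peptide carrier PEPT2, lay at 1448 ± 325 against 2012 ± 213 (log2 difference −0.49, SE 0.18, adjusted p = 0.225), and its other probe sets showed −0.28 and −0.27. SLC1A5, the glutamine carrier ASCT2, lay at 666 ± 197 against 426 ± 90.8 (log2 difference 0.60, SE 0.25, adjusted p = 0.286). Its relative SLC1A4, a carrier of alanine and serine, showed −0.092. SLC7A7, which exports basic amino acids, and SLC3A2, the heavy chain it pairs with, showed −0.11 and −0.089, both smaller than their SE of 0.16 and 0.22.

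The mitochondrial carriers, family SLC25, were the largest family, with 27 probe sets of 21 genes, with 19 genes above the filter, of which 9 had a higher and 10 a lower mean in KNP (median difference −0.036). The adenine nucleotide carriers that exchange ATP for ADP showed −0.21 (SLC25A4), −0.30 (SLC25A5) and −0.12 (SLC25A6). SLC25A4 read 6893, 10886, 6088 and 7391 in KNP and 9569.5, 11242, 8041 and 6949 in YS, with ranges that overlapped over most of their length. SLC25A1, the citrate carrier that supplies the cytosol with acetyl units, lay at 4410.4 ± 1422 against 3719.9 ± 783 (log2 difference 0.21, SE 0.24, adjusted p = 0.727), and SLC25A20, which brings acylcarnitines in for oxidation, at 1119 ± 405 against 1295 ± 236 (log2 difference −0.25, SE 0.24, adjusted p = 0.663). SLC25A17, a peroxisomal carrier of coenzyme A and related cofactors, showed 0.34 (adjusted p = 0.344), and the uncoupling protein homologue SLC25A14 −0.57 (adjusted p = 0.384). The other SLC25A14 probe set lay below the filter and showed 0.50 when no filter was applied.

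Metal carriers comprised 27 probe sets of 13 genes, with 12 genes above the filter, of which 5 had a higher and 7 a lower mean in KNP (median difference −0.039). The zinc importers SLC39A1 and SLC39A14, the latter also a carrier of manganese and iron, lay at 1099.9 ± 320.1 against 789.9 ± 53.5 (log2 difference 0.43, SE 0.20, adjusted p = 0.339) and 2120.2 ± 726 against 1624 ± 268 (log2 difference 0.33, SE 0.24, adjusted p = 0.554). Both probe sets of SLC39A1 had nearly the same difference, 0.43 and 0.41, while the dimmer one of SLC39A14 showed 0.044. SLC41A1, a magnesium carrier, showed −0.53 (adjusted p = 0.452). Its other probe sets lay below the filter and showed 0.70, 0.27 and −0.11 when no filter was applied. SLC11A1, the metal carrier of macrophage phagosomes, read 85.4, 83.9, 236 and 192 in KNP and 151, 100.1, 264 and 167 in YS (log2 difference −0.23, SE 0.37, adjusted p = 0.819). Beside it, the macrophage markers C1QC, C1QA, CD163 and CD14 showed 0.63, 0.49, 0.56 and 0.08, and their summed level with MARCO, whose own values lay below the filter, ran from 13489 to 18774 in KNP and from 7865 to 16869 in YS. None of these markers passed the threshold.

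The inorganic ion families comprised 18 probe sets of 14 genes, with 7 genes above the filter, of which 5 had a higher and 2 a lower mean in KNP (median difference 0.14). These 7 include the scaffold genes SLC9A3R1 and SLC9A3R2, which are no transporters and were both higher in KNP. The class median is the value of SLC9A3R1 itself. SLC12A4, the potassium chloride cotransporter KCC1, lay at 380.2 ± 76.5 against 265 ± 48.5 (log2 difference 0.49, SE 0.20, adjusted p = 0.280). SLC26A6, an exchanger of chloride for oxalate and bicarbonate, read 243, 126, 172 and 219 in KNP and 128, 185, 23.1 and 91.4 in YS (log2 difference 0.94, SE 0.45, adjusted p = 0.360), and without YS replicate 3 the difference was 0.46. The scaffold gene SLC9A3R1 showed 0.14, the scaffold gene SLC9A3R2 0.22 and the regulator gene SLC2A4RG, counted above with the sugar families, 0.20.

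Organic ion and drug carriers comprised 13 probe sets of 8 genes, with 4 genes above the filter, of which 2 had a higher and 2 a lower mean in KNP (median difference 0.017). SLCO2B1, an uptake carrier for sulfated steroids and drugs, read 4498, 3649.8, 4367 and 4698 in KNP and 5353, 5837, 2894 and 4420.4 in YS (log2 difference −0.062, SE 0.21, adjusted p = 0.921). All 4 KNP values lay inside the YS range. SLCO1A2, a relative with a similar range of substrates, showed 0.041, and its dimmer probe sets 0.10 and −0.56, and SLCO3A1 0.64 (adjusted p = 0.548). The organic ion carriers SLC22A2, SLC22A3, SLC22A6 and SLC22A8 lay below the filter, and the carnitine carrier SLC22A5 showed −0.0075 (SE 0.23).

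Carriers of monocarboxylates, fatty acids, choline and acetyl-CoA numbered 14 probe sets of 7 genes, with 4 genes above the filter, of which 2 had a higher and 2 a lower mean in KNP (median difference −0.059). SLC16A13, of the monocarboxylate family, read 168, 415, 119 and 227 in KNP and 314, 382, 319 and 325 in YS (log2 difference −0.63, SE 0.31, adjusted p = 0.361). The YS values lay close together inside the wide KNP range, and the difference was −0.94 without KNP replicate 2 and −0.39 without KNP replicate 3. The vitamin families had 9 probe sets of 6 genes, with 4 genes above the filter, of which 4 had a higher and 0 a lower mean in KNP (median difference 0.26). This class was set by family number: 3 of the 4 genes belong to SLC46, and no probe set of the SLC23 family passed the filter. SLC46A1, the proton-coupled folate carrier, showed 0.24 with its brighter probe set and 0.73 with the other (231 ± 94.7 against 128 ± 34.5, adjusted p = 0.261). SLC52A2, a riboflavin carrier, and SLC46A2 and SLC46A3 of the same family as SLC46A1 showed 0.25, 0.34 and 0.27. The second tested probe set of SLC46A3 showed −0.14. SLC5A6, which imports biotin and pantothenate, was counted with the sugar families by its family number. Nucleoside and nucleotide sugar families had 18 probe sets of 13 genes, with 11 genes above the filter, of which 6 had a higher and 5 a lower mean in KNP (median difference 0.099). SLC35F5 read 2531, 4194, 4020.2 and 3829.9 in KNP and 2738, 2456, 1961 and 2230.5 in YS (log2 difference 0.62, SE 0.19, adjusted p = 0.154), with only KNP replicate 1 inside the YS range, and its other probe sets showed 0.35 and 0.48. SLC35B2, which brings the sulfate donor PAPS into the Golgi, showed −0.28 (adjusted p = 0.493).

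Variation among animals of one breed was larger than the breed difference in several members. Counting values at least 1 log2 unit from the median of the other 3 animals of the breed, KNP replicate 2 was low in 14 of 117 tested members (11.97%), against 3.77% of all probe sets tested on that array. KNP replicate 3 was high in 10 (8.55%, against 2.18%). These counts include 3 probe sets of SLC38A1 and 2 of SLC27A6 among the former, and 3 of SLC33A1 and 2 of SLC27A6 among the latter, so they are fewer genes than probe sets. The summed stellate cell and fibroblast markers were highest in KNP replicate 2 (8078, with 5952 as the next highest KNP value and 3991 to 6772 in YS), and the summed red cell markers lowest there (1597). ACTA2 (4672), DCN (2258) and COL1A2 (705) were highest in that animal, while COL3A1 (325) and LUM (118) were higher in KNP replicate 1 (327 and 318). Among red cell markers ALAS2 (819) and AHSP (198) were lowest in that animal, while HBB (580) was above its lowest KNP value of 433. In KNP replicate 3 the summed macrophage markers were highest (18774) and the summed stellate cell markers lowest (2022). Of the macrophage markers CD163 was highest there (5603), while CD14 (2108) was the lowest KNP value and MARCO (53.4) the lowest of all animals. Of the stellate cell markers ACTA2 (917), DCN (285) and LUM (34.7) were lowest there, while COL1A2 (502) and COL3A1 (284) were lower in KNP replicate 4 (458 and 231). The part of these markers in the values of the 2 animals was not tested. No YS animal was low, or high, in more than 3 members.

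**Figure D4:**
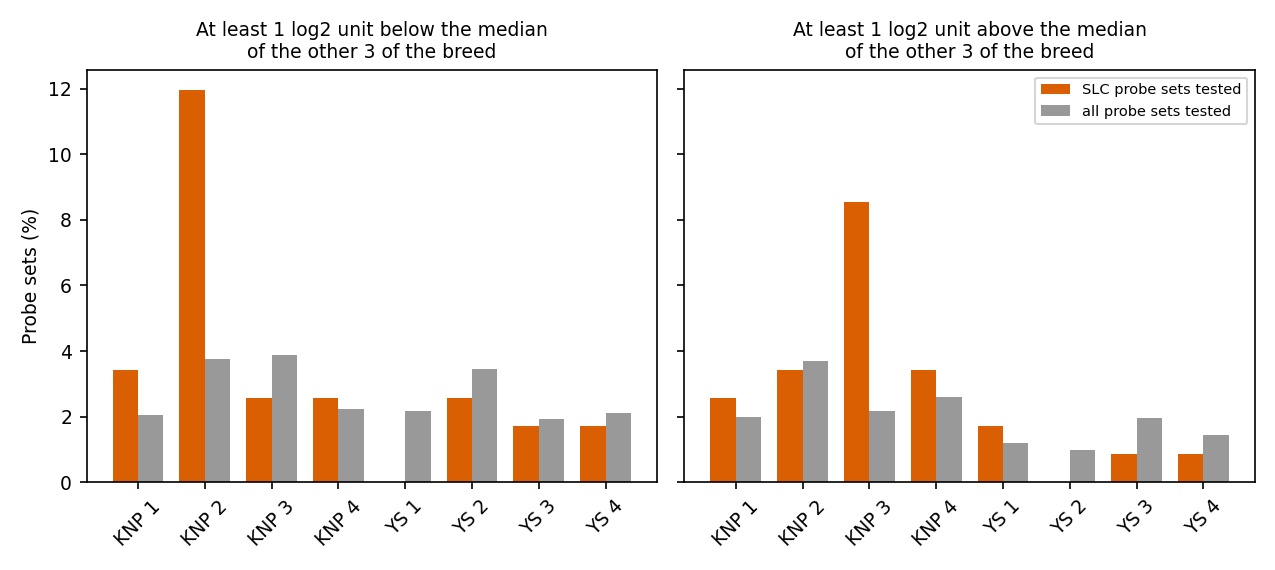
Share of probe sets (%) in which an animal lay at least 1 log2 unit below (left) or above (right) the median of the other 3 animals of its breed, for the 117 tested solute carrier probe sets (orange) and all 14399 tested (grey). The tallest orange bars are KNP replicate 2 on the left (11.97%) and KNP replicate 3 on the right (8.55%).

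SLC38A1, a sodium-coupled glutamine carrier, had its lowest value in KNP replicate 2. It read 1063, 98.3, 1729.9 and 2056 in KNP and 719, 418, 838 and 568 in YS (log2 difference 0.37, SE 0.74, adjusted p = 0.850). That animal lay far below every other and the remaining 3 KNP animals above all YS animals. Without KNP replicate 2 the difference was 1.32 (adjusted p = 0.0577), while without KNP replicate 3 or 4 it was 0.006 or −0.076. Both further SLC38A1 probe sets were lowest in KNP replicate 2, at 94.0 and 53.4. Without that animal they showed 1.07 and 0.62 (adjusted p = 0.098 and 0.366). In the dimmest, KNP replicate 1 (182) also lay inside the YS range (103 to 236). SLC27A6, a fatty acid transport protein, read 427, 49.6, 1025 and 485 in KNP and 346, 340.5, 276 and 139 in YS, and its difference of 0.34 became 1.15 without KNP replicate 2 and −0.18 without KNP replicate 3. SLC25A48, a mitochondrial carrier, read 809, 126, 447 and 688 in KNP and 443, 409.6, 631 and 570.0 in YS (−0.24, and 0.31 without KNP replicate 2).

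SLC6A8, the creatine importer, read 549, 71.7, 381 and 399.6 in KNP and 509, 652, 546 and 575 in YS (log2 difference −0.96, SE 0.47, adjusted p = 0.363). Without KNP replicate 2, the only animal far below the rest, it showed −0.37. SLC1A2, a glutamate importer, went the other way in that animal, with 267, 2009.7, 292 and 533 in KNP and 243, 249, 333 and 497 in YS (log2 difference 0.74, SE 0.53, adjusted p = 0.548, and 0.12 without KNP replicate 2). KNP replicate 3 was high in SLC5A6, the sodium-coupled importer of biotin and pantothenate, which read 2341, 1339.7, 5804 and 1904 in KNP and 1620.5, 1382, 1465 and 1430.3 in YS (log2 difference 0.72, SE 0.35, adjusted p = 0.370, and 0.30 without it). It was also high in SLC33A1, which carries acetyl-CoA into the endoplasmic reticulum, with 858, 945, 2359 and 1215 in KNP and 1012, 1148, 959.5 and 1711 in YS (0.071, and −0.24 without KNP replicate 3). All 3 tested SLC33A1 probe sets were highest in that animal.

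**Figure D5:**
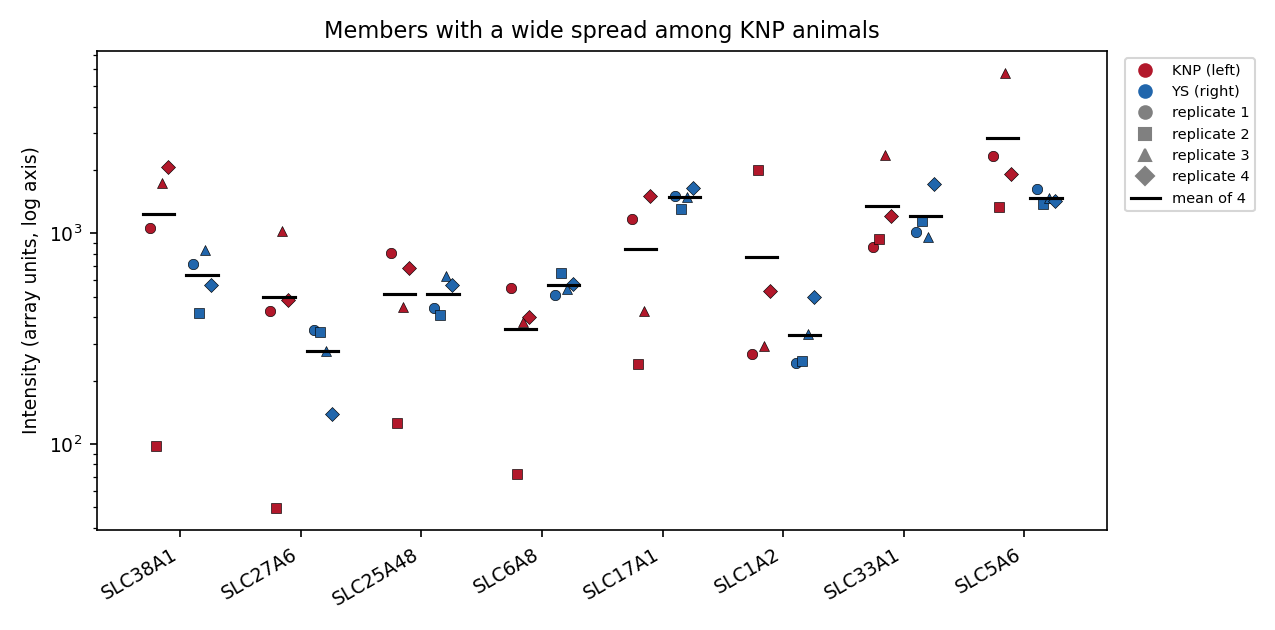
Intensity (log axis) of 8 members with a wide spread among KNP animals, by brightest probe set, with KNP in red on the left, YS in blue on the right, symbols for the replicates and bars for the mean of 4. KNP replicate 2 (squares) is lowest in the first 5 genes and highest in SLC1A2, and KNP replicate 3 (triangles) is highest in SLC33A1 and SLC5A6.

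Of 22 genes with several tested probe sets, 7 had differences of opposite sign: SLC1A1, SLC25A37, SLC30A3, SLC39A5, SLC3A1, SLC46A3 and SLCO1A2. The spread between the probe sets of a gene had a median of 0.28 and reached 1.53 in SLC30A3. It was smallest in SLC39A1, SLC26A11 and SLC44A2, at 0.024, 0.041 and 0.060.

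Other membrane transport genes were examined from a list of 28: the sodium pump that powers many solute carriers, ABC export pumps, water channels, partner proteins and liver transcription factors. Of 17 with a probe set of a single symbol, 15 were tested and limma called 0, where 1.03% of all probe sets tested were called. At an unadjusted p under 0.05 there were 3, against 15.1% of all, and the median difference was 0.079. In 1 of the 15 the breeds did not overlap, against 9.68% of all. ABCB1, the drug export pump P-glycoprotein, read 1141, 604, 1298 and 847 in KNP and 1273, 1679.9, 2164 and 1627 in YS (log2 difference −0.82, SE 0.25, adjusted p = 0.150), with only 1 KNP value, that of replicate 3, inside the YS range. HNF4A, a transcription factor that drives many hepatocyte genes, read 7972, 7888, 8091 and 4599 in KNP and 10669, 9696, 9636 and 8988 in YS (log2 difference −0.48, SE 0.19, adjusted p = 0.253), without overlap. The sodium pump subunits ATP1B1 and ATP1B3 showed −0.45 and 0.46. The bile canalicular pumps ABCB11 and ABCC2 showed 0.054 and −0.020, PDZK1, a scaffold for carriers, −0.11, and BSG, the partner of monocarboxylate carriers, 0.33.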

How the data were processed

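Liver RNA of 4 KNP and 4 YS pigs was measured on 1 array per animal. Per the submitters' processing notes the software was GCOS 1.3. The authors deposited 1 linear intensity for each probe set and array. Its mean between percentiles 2 and 98 was 499.8 on each array, which points to a scaling by array before deposit. How signal and background were computed is not given in the sources used here. Of 24123 probe sets, 124 controls were left out. With log2(value + 16) the array medians differed by 0.22, under the limit of 0.5 set for quantile normalization, so none was applied. Probe sets in the lower 40% by mean of the log2 values were left out (14399 tested). The breeds were compared with limma 3.58.1 in R 4.3.3 (lmFit, eBayes with an intensity trend, breed as the only term, two-sided, Benjamini-Hochberg). The fit was tested on simulated data. Symbols come from the array annotation, and 120 of 122 genes were found in the pig gene table (Sscrofa11.1) under the same symbol. A gene stands as its probe set of highest mean. Left out were 5 solute carrier probe sets with several symbols and 1 of SLC10A1.

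The members and lists were chosen with earlier results of these data known. Genes were named by class: the probe set of highest mean and the 3 genes of smallest p, members without overlap and a difference of at least 1, and 18 of 38 liver carriers on a list; the other 20 were not analysed here. SLC1A5, SLC4A4, SLC6A8, SLC22A5, SLC25A3, SLC25A6, SLC25A48, SLC35A4, SLC38A1, SLC9A3R2, SLC2A4RG, 4 dim SLC22A members and genes given only for the spread of their probe sets were named after their values were seen. Alternatives were a pseudocount of 1 or 64, quantile or cyclic loess normalization, median centring, no filter, a stricter filter (60%), array weights, eBayes without the trend, the replicate number as a block, leaving out each animal, and a gene as the average over its probe sets.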

Additional observations from a re-analysis of the deposited data

Results flagged for a closer look

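In 5 of 94 groups of 4 animals (47 genes in 2 breeds), 1 animal lay further from the others than Dixon's critical value (95%) for 4 samples allows. Chance flags about 1 in 20 groups, and 5.32% were flagged here. KNP replicate 2 was high in SLC1A2, with 2009.7 against 267 to 533 in the other 3 animals. KNP replicate 1 was low in SLC31A1, with 1605 against 2717 to 2821 in the other 3 animals. It was high in SLC29A1, with 369 against 277 to 293 in the other 3 animals, and in SLCO1A2, with 450.4 against 140.4 to 188 in the other 3 animals. YS replicate 2 was high in SLC16A13, with 382 against 314 to 325 in the other 3 animals.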

How the results depend on the processing

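The count of solute carrier probe sets called by limma was 0 in both directions under every alternative run except no filter, where 2 were called higher (SLC4A4 and SLC35A4). No other membrane transport gene of the list was called under any of them. The count over all probe sets was 149 with the settings of the report, 180 with array weights, 163 with the 60% filter, 157 and 140 with pseudocounts of 64 and 1, 35 without a filter, 95 after median centring, 14 after quantile or cyclic loess normalization, 65 with a gene as the mean of its probe sets, 13 without the intensity trend and 8 to 119 with 1 animal left out. The median difference over solute carrier genes stayed between 0.008 and 0.15. The replicate numbers did not pair the animals (correlations of −0.020 to 0.051); with the replicate block 8 probe sets were called over all and 0 solute carriers, and without a filter the SLC4A4 and SLC35A4 calls were lost under the block (adjusted p = 0.121 and 0.152), while both were kept after quantile normalization and median centring. These refits without a filter were chosen after seeing the data.

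Of 47 genes followed, the sign turned in SLC1A4 after quantile (0.046) and cyclic loess normalization (0.041), in SLC25A39 after median centring (0.040) and with array weights (0.011), in SLCO2B1 after median centring (0.014) and cyclic loess (0.021), in SLC33A1 with array weights (−0.0097), and with the mean of all probe sets in SLC30A3 (−0.62), SLC25A37 (0.083) and SLCO1A2 (−0.14). In SLC30A3, SLC25A37 and SLCO1A2 the tested probe sets had differences of opposite sign, so their average differed in sign from the brightest probe set. For the other genes the cause was not tested. With 1 animal left out, the sign turned in 10 genes, whose ranges were −0.28 to 0.069 (SLC1A4), −0.20 to 0.075 (SLC3A2), −0.13 to 0.13 (SLC25A39), −0.18 to 1.15 (SLC27A6), −0.24 to 0.25 (SLC33A1), −0.29 to 0.23 (SLCO1A2), −0.27 to 0.066 (SLCO2B1), −0.12 to 0.24 (SLC2A2), −0.038 to 0.28 (SLC2A3), −0.062 to 0.59 (SLC46A3). Signal near background limits the dim members: their size depends on the pseudocount.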
